A study of Sus scrofa with 12 samples.

Results

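The 40 genes described here are those of a pig heart RNA-seq table that were chosen by their CPM (read counts of a gene scaled to library size) in each library: the values in 6 libraries of left ventricular pressure overload and in 6 control libraries did not overlap, other than 11 named genes that were set aside. They are 7.75% of the 516 genes in the table. In 33 of them every overload library was below every control library, and in 7 every overload library was above. The members were selected on these CPM values, so the values below are a description and support nothing. Over all 516 genes, 9.69% had no overlap in either direction, 7.56% with overload lower and 2.13% with overload higher, and 10 of the 11 genes set aside are in that share. That split holds for CPM as deposited. After rescaling the libraries by median-of-ratios factors, 6 genes of the table were lower and 47 higher without overlap. After upper-quartile factors these were 9 and 23. Here and below, both sets of factors come from the listed genes, most of which were lower. An upward shift is therefore built in, and nothing is read from the turned split.

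The overload pigs had 5 weeks of left ventricular pressure overload (labelled LV Pressure Overload), made by stepwise closing of a cuff around the ascending aorta, and the others were age- and weight-matched pigs (labelled Referent Control). The series text gives 9 pigs with overload and 6 controls, and 6 libraries of each group were analysed here. Every sample carries the same cuff protocol text in its labels, controls included, so whether controls had an uninflated cuff is not stated. The tissue is labelled heart, with no chamber named. Strain, sex and age in figures are not given in the labels, nor is it said that each library came from a separate pig, so the spread given here is that between libraries, which may be technical. Library size, here the number that turns CPM into whole reads, was recovered from the steps between CPM values. It ranged from 24.3 to 31.9 M reads in overload and from 19.5 to 30.2 M reads in controls. If the authors rescaled the libraries, which no label states, this is a rescaled size and not the number of reads sequenced. Most read numbers at these sizes were even, and sizes under 18 M were not searched.

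Pressure overload makes the left ventricle eject against a raised load, and its wall thickens as cardiomyocytes enlarge and the matrix between them is remodelled. The 40 genes encode proteins of transcription and chromatin, RNA handling, the centrosome and cilium, membrane traffic, actin and protein turnover, most of them outside the contractile and matrix genes that are best known from the loaded ventricle. Chromatin remodellers and histone-modifying enzymes set which genes can be transcribed, and centrioles organise the spindle in dividing cells and the base of the cilium in resting ones. In whole tissue, fewer cells of a type and less RNA per cell cannot be told apart.

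The difference of mean log2(CPM + 1), overload minus control, had a median of -0.45 over the 33 lower genes and ran from -0.96 to -0.24, beside a median of -0.49 over all 375 listed lower genes. For the 7 higher genes the median was 0.29 and the range 0.25 to 0.61, beside 0.42 over all 141 listed higher genes. As a ratio of mean CPM, the lower genes differed by -15.4% to -74.0% and the higher genes by 19.6% to 55.2%. No member reached an absolute log2 difference of 1 with this pseudocount of 1, and 20 of the 33 lower and 6 of the 7 higher genes were under 0.5. The coefficient of variation among libraries had a median of 12.1% in overload and 14.3% in controls over the 33 lower genes, where the 375 listed lower genes had 21.7% and 22.1%, and non-overlap itself picks genes with a narrow spread. For genes with few reads the pseudocount of 1 makes such a difference smaller than the log ratio of CPM.

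**Figure D1:**
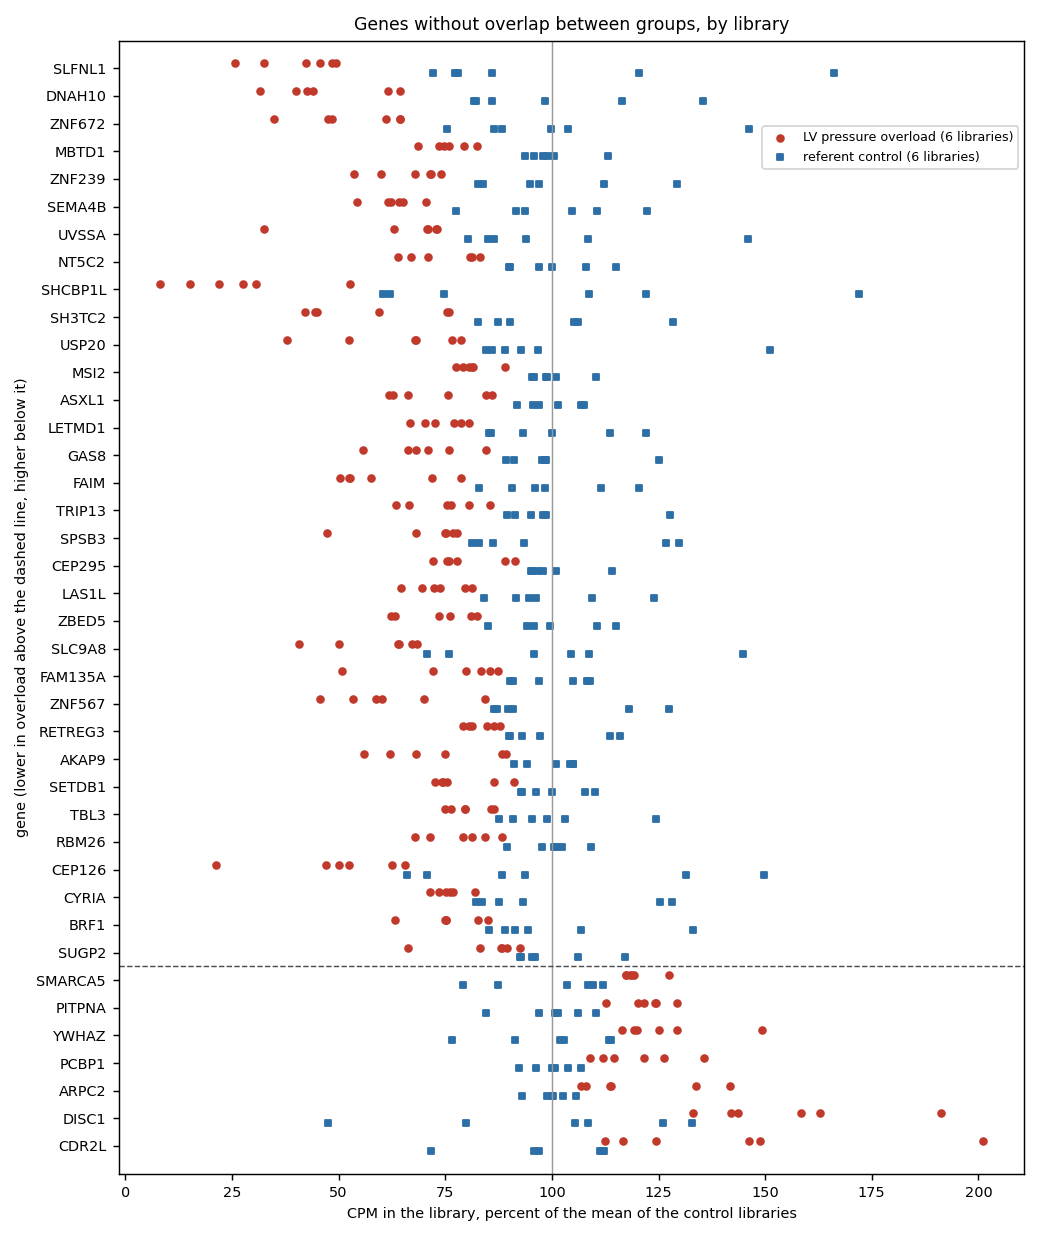
CPM of the 40 genes in each of 12 libraries, as a percentage of the mean of the 6 control libraries of the same gene. Each row is a gene, red circles are LV pressure overload libraries and blue squares are referent control libraries, and no row has overlapping groups. The 33 genes above the dashed line were lower in overload and the 7 below it were higher.

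Among the 10 genes of transcription and chromatin, 9 were lower in overload and 1 was higher, beside 33 lower and 7 higher of all 40 genes. That split also stands behind the counts of the other classes below, and nothing is read from them. ZNF672, a C2H2 zinc finger protein, had 21.7, 20.6, 21.8, 11.8, 16.1 and 16.4 CPM in overload libraries, against 33.7, 25.4, 29.2, 35.1, 49.4 and 29.8 CPM in control libraries, in the order of replicates 1 to 6. Its difference was -0.87 ± 0.18 (SE, n = 6 each) on the log2 scale. Overload replicates 1 to 3 lay between 20.6 and 21.8 CPM and replicates 4 to 6 lower, between 11.8 and 16.4 CPM, and control replicate 5 stood above the other controls. ZNF239, another C2H2 zinc finger protein, had 21.6, 21.6, 22.4, 16.2, 20.5 and 18.1 CPM in overload libraries, against 29.3, 24.996, 28.6, 25.3, 39.1 and 33.9 CPM in control libraries. The lowest control library of ZNF239, replicate 2, lay above the highest overload library, replicate 3, by 10.4% of its own value, and the log2 difference was -0.56 ± 0.14.

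MBTD1, a reader protein of the TIP60 acetyltransferase complex, had 20.03, 21.6, 22.5, 18.7, 20.7 and 20.3 CPM in overload libraries, against 26.1, 26.9, 27.4, 30.8, 25.6 and 26.7 CPM in control libraries. Both groups were narrow, with a coefficient of variation of 6.37% in overload and 6.82% in control libraries, so that a log2 difference of -0.38 ± 0.11 left a gap of 12.2% between the facing libraries. UVSSA, which acts in transcription-coupled DNA repair, had 12.4, 12.8, 12.7, 5.66, 12.4 and 11.01 CPM in overload libraries, against 14.8, 16.4, 14.02, 15.1, 25.5 and 18.9 CPM in control libraries. Overload replicate 4 was the lowest of the 12 libraries for UVSSA, by more than 5 CPM, and control replicate 5 was the highest. The log2 difference of -0.62 ± 0.20 was -0.34 without these 2 libraries.

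SMARCA5, the ATPase of ISWI chromatin remodelling complexes and the one gene of this group that was higher, had 99.97, 98.8, 99.6, 107, 98.8 and 100.4 CPM in overload libraries, against 87.1, 94.3, 91.3, 92.2, 66.7 and 73.6 CPM in control libraries. Its 6 overload values lay within a few CPM of each other apart from replicate 4, with a coefficient of variation of 3.18% in overload and 13.5% in control libraries. The lowest control values were those of replicates 5 and 6, and the log2 difference of 0.27 ± 0.10 was 0.13 in the libraries numbered S01 to S06 and 0.41 in those numbered S10 to S15.

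The remaining 5 genes of transcription and chromatin were lower in overload. ASXL1, a scaffold of a histone deubiquitinase complex, averaged 28.4 ± 4.23 CPM in overload and 39.04 ± 2.49 CPM in control libraries (SD, n = 6 each, here and below). SETDB1, a histone lysine methyltransferase that silences repeats, averaged 22.5 ± 2.20 CPM in overload and 28.5 ± 2.14 CPM in control libraries, and its log2 difference of -0.33 was -0.01 once libraries were rescaled by median-of-ratios factors. ZBED5, a zinc finger protein that descends from a DNA transposon, averaged 49.7 ± 5.85 CPM in overload and 67.9 ± 7.51 CPM in control libraries. That gene and ASXL1 had log2 differences of -0.45 and -0.45. ZNF567, a further zinc finger protein, averaged 9.53 ± 2.08 CPM in overload and 15.4 ± 2.76 CPM in control libraries, and BRF1, a subunit of the initiation factor of RNA polymerase III, 41.3 ± 4.15 CPM in overload and 54.3 ± 9.65 CPM in control libraries. BRF1 was among the closest to overlap, with 46.24 CPM in overload replicate 3 and 46.34 CPM in control replicate 3.

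Of the 6 genes of RNA binding and ribosome assembly, 5 were lower in overload and 1 was higher, and their log2 differences were small, from -0.42 to 0.26. LAS1L, part of an enzyme complex that trims precursor ribosomal RNA, averaged 26.3 ± 2.22 CPM in overload and 35.8 ± 5.13 CPM in control libraries. TBL3, a component of the small subunit processome, averaged 36.1 ± 2.13 CPM in overload and 44.9 ± 5.89 CPM in control libraries, with a log2 difference of -0.30 that was 0.02 after median-of-ratios rescaling. RBM26, an RNA recognition motif protein, averaged 44.3 ± 4.36 CPM in overload and 56.3 ± 3.63 CPM in control libraries. MSI2, a Musashi protein that binds messenger RNA and regulates its translation, was at 34.5 to 39.5 CPM (median 35.96) in overload and 42.4 to 49.1 CPM (median 43.9) in control libraries. The coefficient of variation of MSI2 was 4.84% in overload and 5.53% in control libraries, and its difference of -0.29 was 0.03 after median-of-ratios rescaling. SUGP2, a G-patch protein related to splicing factors, averaged 43.5 ± 4.87 CPM in overload and 51.4 ± 5.04 CPM in control libraries, with a difference of -0.24 that was 0.08 after the same rescaling.

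PCBP1, which binds poly(C) stretches of RNA and was the higher gene of this group, had 253, 275, 246, 306, 259 and 285 CPM in overload libraries, against 227, 234, 241, 226, 209 and 217 CPM in control libraries. Overload replicates 4 and 6 were the highest, and the lowest overload library, replicate 3, stood above the highest control library, replicate 3, by 2.07% of its own value. The log2 difference was 0.26 ± 0.09. PCBP1 lies wholly within the annotated span of ASPRV1 in RefSeq, and no source used here says whether reads were counted by strand, which leaves its value uncertain. Exons were not compared, so whether PCBP1 and ASPRV1 share reads was not tested.

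The 8 genes of the centrosome, cilium and spindle comprised 7 that were lower in overload and 1 that was higher, and they held the largest log2 difference of the 40 genes. SHCBP1L, known from the meiotic spindle of mouse testis, had 0.308, 0.443, 0.560, 0.620, 1.07 and 0.164 CPM in overload libraries, against 2.47, 1.52, 1.23, 1.26, 2.21 and 3.49 CPM in control libraries. It rested on few reads, with a mean of 15 reads in overload and 51 reads in control libraries, and as few as 4 in overload replicate 6. The log2 difference was -0.96 ± 0.25 with the pseudocount of 1, -1.28 with 0.5 and -1.82 with 0.1, and SHCBP1L was the only member with libraries under 1 CPM, having 1 CPM or more in 1 of 6 overload libraries and in every control library. DNAH10, a dynein heavy chain of the ciliary axoneme, had 2.27, 1.63, 2.38, 1.16, 1.57 and 1.48 CPM in overload libraries, against 4.997, 3.03, 4.30, 3.02, 3.63 and 3.17 CPM in control libraries, on a mean of 47.8 reads in overload and 91 reads in control libraries. Control replicates 1 and 3 were above the other controls, no overload library passed 2.38 CPM, and the log2 difference was -0.77 ± 0.20.

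CEP126, a centrosomal protein of the cilium base, had 5.27, 6.28, 5.04, 4.73, 6.59 and 2.14 CPM in overload libraries, against 9.42, 13.2, 6.65, 8.88, 7.12 and 15.1 CPM in control libraries. Its groups all but touched, with 6.59 CPM in overload replicate 5 and 6.65 CPM in control replicate 3. Its controls were spread over a range of more than 8 CPM, and the log2 difference was -0.88 ± 0.25. DISC1, a scaffold protein found at the centrosome and the higher gene of this group, had 9.04, 10.1, 8.47, 9.14, 10.4 and 12.2 CPM in overload libraries, against 6.90, 8.02, 6.70, 8.45, 3.03 and 5.07 CPM in control libraries. Control replicates 5 and 6 were the lowest, and the facing libraries were 8.47 CPM in overload replicate 3 and 8.45 CPM in control replicate 4. The log2 difference of 0.61 ± 0.21 was 0.31 in the libraries numbered S01 to S06 and 0.91 in those numbered S10 to S15.

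AKAP9, which anchors protein kinase A at the centrosome and Golgi and, in the heart, at the KCNQ1 potassium channel, was at 71.3 to 114 CPM (median 91.5) in overload and 116 to 133.9 CPM (median 131) in control libraries. Its overload libraries were the more spread, with a coefficient of variation of 18.7% in overload and 6.05% in control libraries, and its log2 difference was -0.47 ± 0.12. CEP295, which acts in centriole maturation, averaged 33.05 ± 3.30 CPM in overload and 41.2 ± 2.95 CPM in control libraries, with a log2 difference of -0.31 that was 0.01 after median-of-ratios rescaling. GAS8, a subunit of the dynein regulatory complex of motile cilia, averaged 12.7 ± 1.75 CPM in overload and 18.1 ± 2.33 CPM in control libraries. TRIP13, an ATPase of the spindle checkpoint and of meiosis, averaged 14.2 ± 1.59 CPM in overload and 19.02 ± 2.67 CPM in control libraries.

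Of the 8 genes of actin, membranes and transport, 6 were lower in overload and 2 were higher. SEMA4B, a transmembrane semaphorin, had 12.5, 12.7, 12.03, 13.8, 12.2 and 10.6 CPM in overload libraries, against 23.9, 17.9, 15.1, 21.6, 18.3 and 20.5 CPM in control libraries. The overload libraries kept within 10.6 to 13.8 CPM, the lowest control library was replicate 3 at 15.1 CPM, and the log2 difference was -0.62 ± 0.14. SLC9A8, a sodium-proton exchanger of the Golgi and endosomes, had 22.4, 21.3, 22.8, 13.6, 21.4 and 16.7 CPM in overload libraries, against 31.9, 23.6, 34.8, 25.3, 36.2 and 48.2 CPM in control libraries. Its control values spread over more than a factor of 2, so a log2 difference of -0.71 ± 0.18 left a gap of only 3.16%.

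CYRIA, which binds active RAC1 and restrains the WAVE actin complex, was at 19.4 to 22.2 CPM (median 20.5) in overload and 22.3 to 34.7 CPM (median 24.5) in control libraries. The coefficient of variation was 4.69% in overload and 21.1% in control libraries, and the facing libraries were 22.24 CPM in overload replicate 2 and 22.29 CPM in control replicate 5. SH3TC2, an endosomal recycling protein mutated in an inherited neuropathy, averaged 3.61 ± 0.992 CPM in overload and 6.33 ± 1.07 CPM in control libraries. LETMD1, a protein of the mitochondrial inner membrane, averaged 14.96 ± 1.08 CPM in overload and 20.1 ± 3.05 CPM in control libraries, and RETREG3, of a family of receptors for autophagy of the endoplasmic reticulum, 39.8 ± 1.67 CPM in overload and 47.7 ± 5.62 CPM in control libraries. RETREG3 had a log2 difference of -0.25 as deposited, which became 0.07 with median-of-ratios factors.

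The 2 higher genes of this group were PITPNA and ARPC2. PITPNA, a phosphatidylinositol transfer protein, had 52.4, 54.5, 52.3, 47.5, 51.2 and 50.6 CPM in overload libraries, against 42.7, 46.5, 44.7, 40.9, 42.4 and 35.6 CPM in control libraries. Control replicate 6 was the lowest of all, overload replicate 4 was the overload library nearest to the controls, and the log2 difference was 0.29 ± 0.10. ARPC2, a core subunit of the Arp2/3 complex that nucleates actin branches, had 220.4, 209, 219.7, 274, 207 and 259 CPM in overload libraries, against 194, 193, 204, 191, 198 and 179.8 CPM in control libraries. Overload replicates 4 and 6 stood above the other 4 overload libraries, which lay between 207 and 220.4 CPM against a highest control of 204 CPM, and the log2 difference was 0.25 ± 0.10.

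Among 5 genes of signalling, turnover and metabolism, 4 were lower in overload and 1 was higher. NT5C2, a cytosolic nucleotidase of purine metabolism, had 60.7, 71.1, 69.5, 57.3, 69.1 and 54.6 CPM in overload libraries, against 76.8, 82.9, 92.2, 77.01, 98.2 and 85.5 CPM in control libraries. Overload replicates 2, 3 and 5 lay between 69.1 and 71.1 CPM and the others at or under 60.7 CPM, while the lowest controls were at 76.8 and 77.01 CPM, and the log2 difference was -0.42 ± 0.11. NT5C2 overlaps PCGF6 over nearly all of its span in RefSeq, which may make its value uncertain too. Exons were not compared, so whether NT5C2 and PCGF6 share reads was not tested. USP20, a deubiquitinase, averaged 21.5 ± 5.29 CPM in overload and 33.8 ± 8.57 CPM in control libraries, with a log2 difference of -0.64 that was -0.38 without overload replicate 4 and control replicate 5. SPSB3, a substrate adaptor of a cullin ubiquitin ligase, averaged 14.8 ± 2.47 CPM in overload and 21.2 ± 4.73 CPM in control libraries, and FAIM, an inhibitor of Fas-mediated cell death, 5.22 ± 1.02 CPM in overload and 8.62 ± 1.19 CPM in control libraries.

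YWHAZ, the zeta member of the adaptor proteins that bind phosphorylated serine, had 235, 228, 245, 292, 253 and 233 CPM in overload libraries, against 179, 199, 222, 223, 201 and 149.8 CPM in control libraries. It was higher in overload by 0.35 ± 0.11 on the log2 scale. The overload values lay between 228 and 253 CPM except for replicate 4, and the lowest control value was that of replicate 6.

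No role is given to 3 genes. SLFNL1, a schlafen-like gene, had the widest gap of the 40, with 2.08, 1.92, 2.24, 1.16, 2.20 and 1.48 CPM in overload libraries, against 3.90, 3.54, 3.27, 3.51, 7.55 and 5.47 CPM in control libraries. No overload library passed 2.24 CPM and no control library was under 3.27 CPM, on a mean of 51 reads in overload and 117 reads in control libraries, and the log2 difference was -0.93 ± 0.22. CDR2L, whose product is bound by antibodies in paraneoplastic cerebellar degeneration, had 23.9, 28.1, 38.7, 21.6, 28.6 and 22.4 CPM in overload libraries, against 21.4, 21.5, 21.6, 18.4, 18.7 and 13.8 CPM in control libraries. Overload replicate 3 was the highest, overload replicate 4 differed from control replicate 3 by 0.131%, and the log2 difference was 0.47 ± 0.16. FAM135A averaged 17.4 ± 3.11 CPM in overload and 22.7 ± 1.93 CPM in control libraries, with a log2 difference of -0.38.

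**Figure D2:**
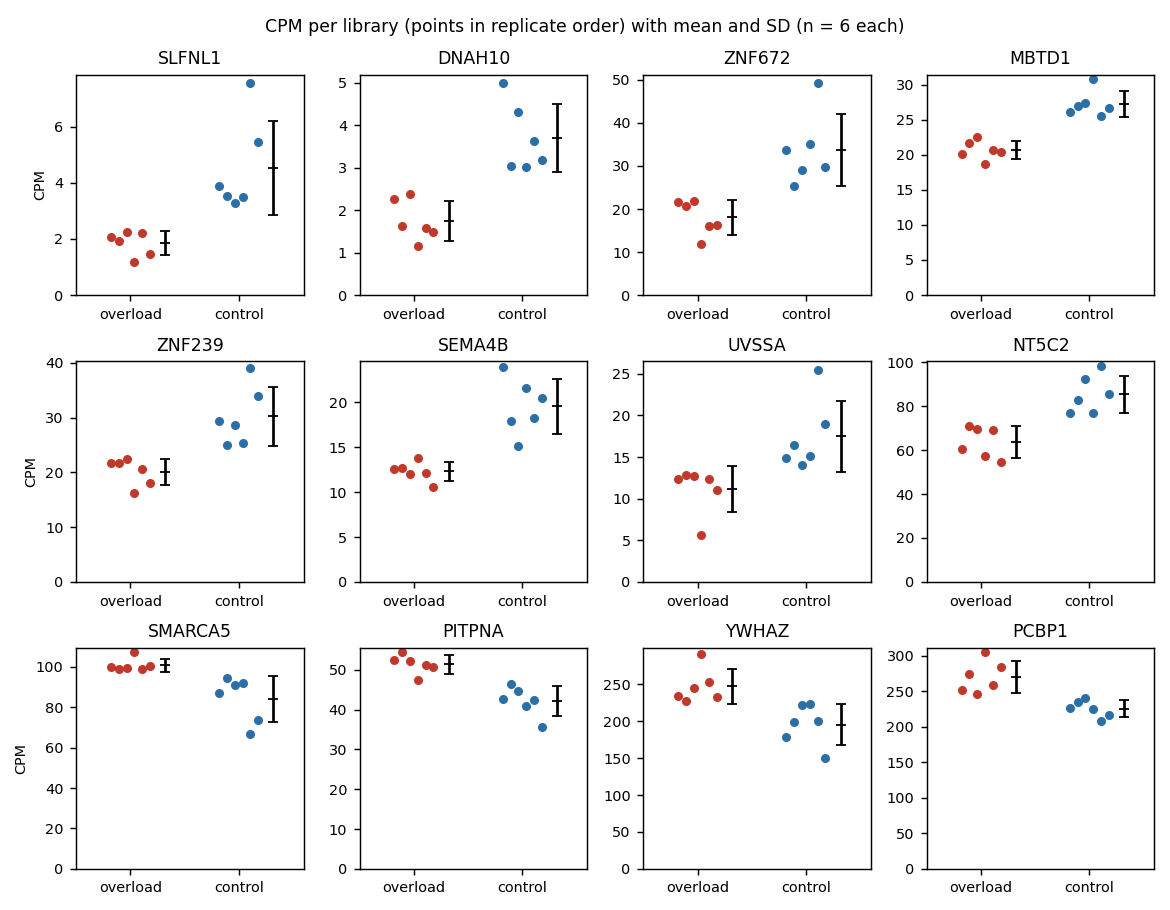
CPM in each library for the 8 lower and the 4 higher genes with the widest gap, overload at the left and control at the right of each panel, points in the order of replicates 1 to 6, with the mean and SD (n = 6 each) beside them. In SLFNL1, ZNF672, ZNF239, UVSSA and NT5C2 the highest control point is replicate 5, and in SMARCA5 the overload points lie between 98.8 and 107 CPM.

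The rule has no margin, and many members stood close to it. The gap between the facing libraries, as a share of the higher one, was at least 10% for 6 genes, under 5% for 24 and under 1% for 6. Just inside the rule were SUGP2, with 47.50 CPM in overload replicate 3 and 47.52 CPM in control replicate 4, and CDR2L, with 21.61 CPM in overload replicate 4 and 21.59 CPM in control replicate 3. Just outside it were SERP1, MMP11, MYH3, ETV1 and DNAJB6. SERP1, which stabilises new membrane proteins, ran from 13.97 to 19.4 CPM in overload and from 10.5 to 13.98 CPM in controls, and MMP11, a matrix metalloproteinase, from 28.4 to 129.08 CPM in overload and from 128.91 to 161 CPM in controls. MYH3, the embryonic skeletal myosin heavy chain, ran from 1.73 to 3.583 CPM in overload and from 3.576 to 10.6 CPM in controls, and the transcription factor gene ETV1 from 19.6 to 31.8 CPM in overload and from 31.7 to 71.5 CPM in controls. DNAJB6, a chaperone gene, ran from 129.5 to 161.01 CPM in overload and from 94.6 to 129.96 CPM in controls.

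For most genes the counting intervals of the facing libraries overlapped. With exact 95% Poisson intervals for the 2 facing libraries, the intervals were apart for 1 of 40 genes, ZNF672, and overlapped for 39. The facing libraries of SLFNL1, ZBED5, SLC9A8 and FAM135A held the same whole number of reads, which for SLFNL1 was 64, so that their gap was that between library sizes. On average 82.3% of whole read numbers up to 5000 were even, where 50% would be even if reads were counted one by one. Counting 2 reads as 1, the intervals were apart for 0 of 40 genes. These intervals cover counting error only. Overlap of 2 separate intervals is no test of the difference between libraries, so a gap with overlap may still exceed counting error.

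**Figure D3:**
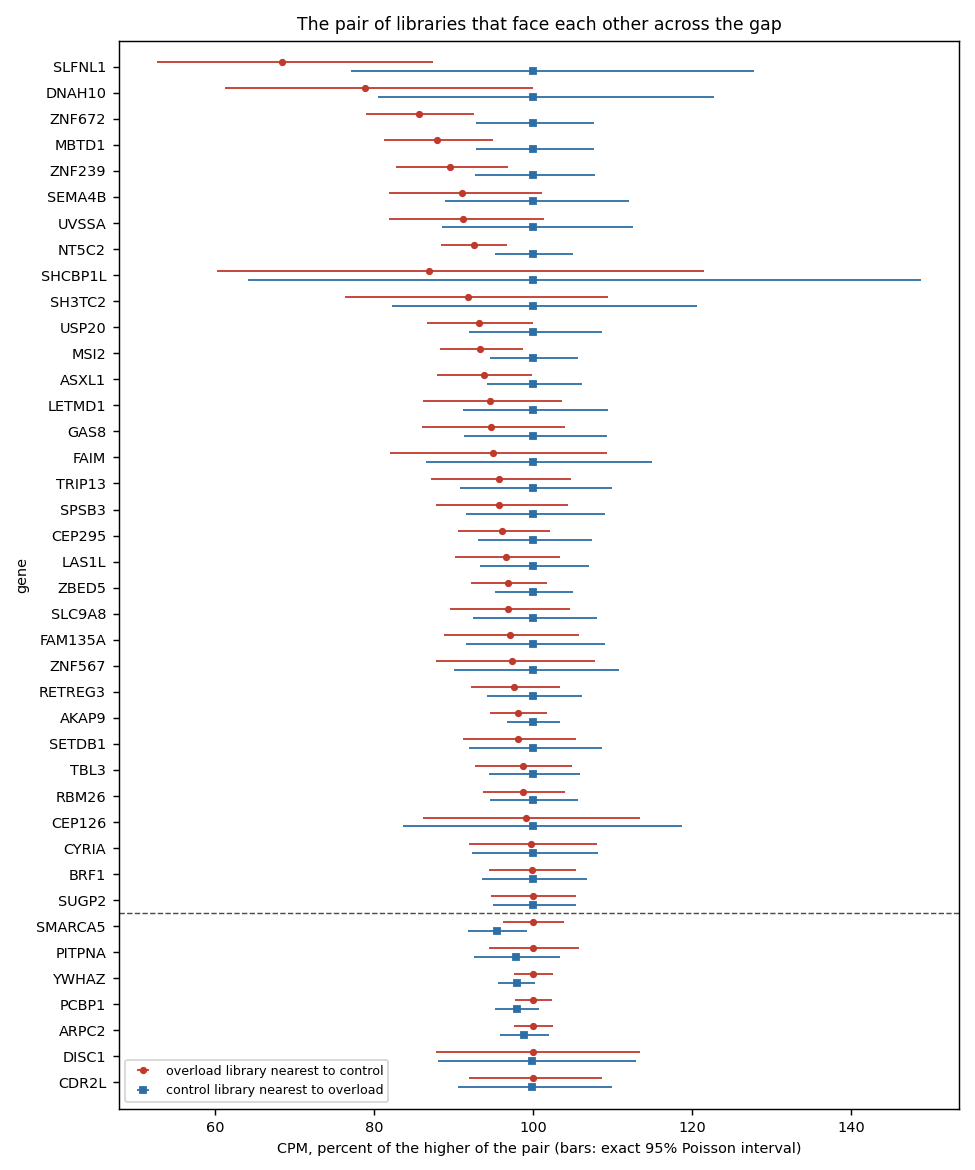
For each of the 40 genes, the overload library nearest to the controls (red circle, above) and the control library nearest to overload (blue square, below), as a percentage of the higher of the pair. Bars are exact 95% Poisson intervals of the read numbers as counted, and those of ZNF672 alone are apart.

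A few libraries were at the edge of their group for many genes. Overload replicate 3 was the highest overload library for 21 of the 33 lower genes and the facing library for 23 of the 40. Its median log2 distance from the control mean was -0.29 over the 33 lower genes and -0.17 over all 375 listed lower genes, where the other overload libraries lay between -0.39 and -0.66 for the 33 and between -0.39 and -0.72 for the 375. Overload replicate 4 was the lowest overload library for 19 of the 33, and control replicate 5 the highest control library for 23. Over all 375 listed lower genes, overload replicate 4 was the lowest overload library in 46.1% and control replicate 5 the highest control library in 52.8%. How often overload replicate 3 was the highest overload library over the 375 was not counted. For a lower gene the highest overload library is the facing library, so the counts of overload replicate 3 overlap and nothing is read from them. The label of control replicate 5 begins with another letter than those of the other 11 libraries, and the labels do not say why. Without overload replicate 4 and control replicate 5, the median log2 difference was -0.36 among the 33 lower and 0.31 among the 7 higher genes, and 6 genes moved by more than 1.5 times. Besides UVSSA and USP20, these were SUGP2 (-0.13 without, -0.24 with these libraries), SPSB3 (-0.30 and -0.48), BRF1 (-0.24 and -0.38) and FAM135A (-0.25 and -0.38).

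**Figure D4:**
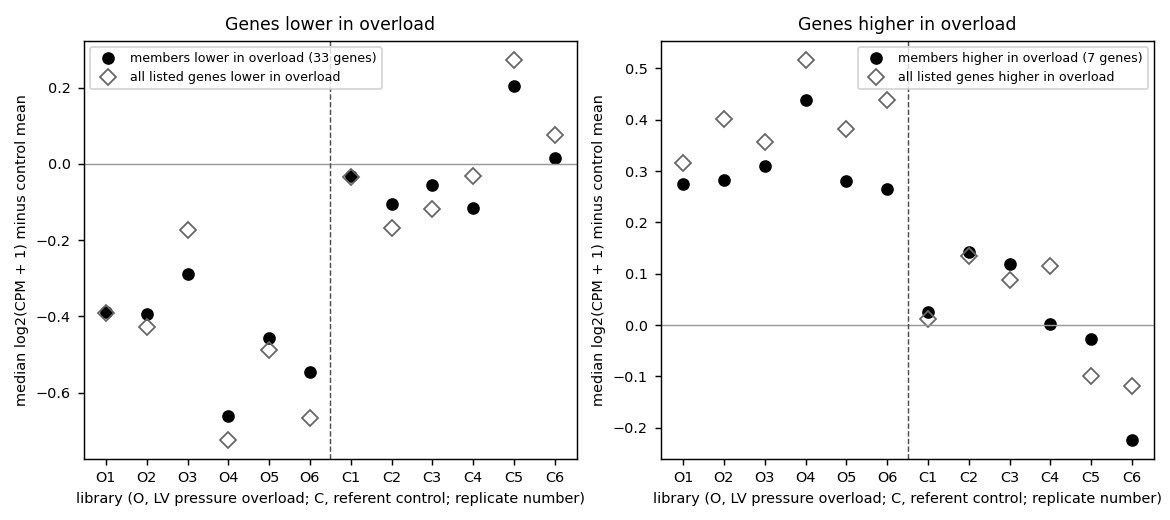
Median distance of each library from the mean of the control libraries on the log2(CPM + 1) scale, for genes lower in overload (left) and higher in overload (right). Filled circles are the 33 or 7 genes without overlap and open diamonds are all listed genes of that direction, and O3 lies nearest to the controls among overload libraries at the left.

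The labels number the libraries S01 to S06 and S10 to S15, with 3 of each group in each run of numbers, and do not call these batches. The median log2 difference of the 33 lower genes was -0.32 in the libraries numbered S01 to S06 and -0.61 in those numbered S10 to S15. For the 7 higher genes these medians were 0.24 and 0.41. Over all 516 listed genes the median was -0.15 in S01 to S06 and -0.59 in S10 to S15, so the table as a whole differed between these runs too. The difference was larger in size in S10 to S15 for 29 of 33 lower and 7 of 7 higher genes. ZNF672 had -0.44 and -1.30, and USP20 -0.21 and -1.06, the widest contrasts of the 40. The 4 exceptions were SH3TC2, with -0.85 and -0.52, and CYRIA, MSI2 and RETREG3. A shared sign in both runs follows from the rule.

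No label says whether the authors rescaled the libraries before taking CPM. The median log2 difference of all 516 listed genes was -0.10 after rescaling by median-of-ratios factors and -0.21 after upper-quartile factors, against -0.41 as deposited. Both sets of factors come from the listed genes, most of which were lower, so an upward shift is built in. After median-of-ratios rescaling, 4 of the 33 lower genes (ZNF672, SLFNL1, DNAH10 and FAIM) and 7 of the 7 higher genes still had no overlap, and after upper-quartile rescaling 5 and 4. Under both, the genes without overlap were ZNF672, SLFNL1 and DNAH10 among the lower and CDR2L, YWHAZ, PITPNA and ARPC2 among the higher. Of the 33, all were lower under both except TBL3, CEP295, MSI2, RETREG3 and SUGP2, which were above 0 after median-of-ratios rescaling.

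**Figure D5:**
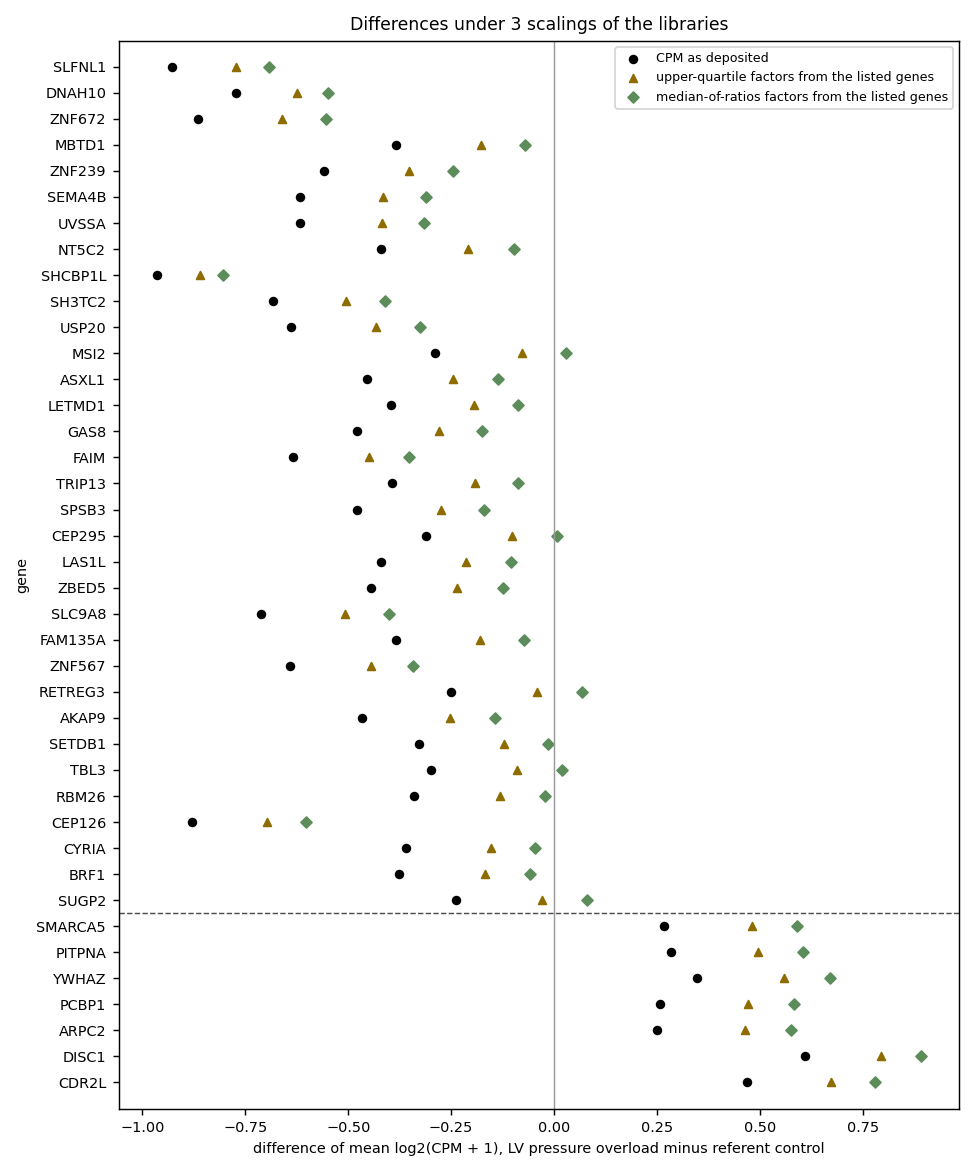
Difference of mean log2(CPM + 1), overload minus control, for the 40 genes with CPM as deposited (black circles), after upper-quartile rescaling (triangles) and after median-of-ratios rescaling (diamonds), both with factors from the listed genes. Every value moves up, and TBL3, CEP295, MSI2, RETREG3 and SUGP2 lie right of 0 after median-of-ratios rescaling. The shift is smaller for a gene with few reads, SHCBP1L (-0.96 as deposited, -0.80 after median-of-ratios rescaling), than for AKAP9 (-0.47 and -0.14).

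No member passed an adjusted p of 0.05 in the authors' deposited table, which calls 6 genes, or 0.0394% of the 15235 genes tested. The smallest adjusted p among the 40 in the authors' deposited table was 0.128 for SLC9A8, followed by 0.171 for ZNF672 and 0.304 for NT5C2, and 27 of the 40 had an adjusted p of 1. All 40 had an unadjusted p under 0.05 there, since every listed gene does. The limma fit covered only 512 listed genes. Its p-values were adjusted for 15235 genes by the Benjamini-Hochberg method, with every unlisted gene assumed to have a larger p. On that assumption limma called 0 of the 512 genes, and the smallest adjusted p among the 40 was 0.63. At an unadjusted p under 0.05, limma gave 40 of the 40 and 456 of the 512 genes fitted. These tests used the contrast that chose the genes, and nothing is read from the counts.

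In RefSeq (Sscrofa11.1), 39 of the 40 symbols were found, spread over 16 chromosomes with BRF1 and LETMD1 on unplaced sequence. The 2 closest members were TBL3, on chromosome 3 from 39989739 to 39996138, and SPSB3, on chromosome 3 from 40184534 to 40190519, 0.188 Mb apart. ZNF672 lies on chromosome 2 from 52297668 to 52313291, SLFNL1 on chromosome 6 from 170189882 to 170199128, DNAH10 on chromosome 14 from 29095480 to 29250255 and SMARCA5 on chromosome 8 from 84184572 to 84224943. LAS1L was the only member on the X chromosome. The Y-linked histone demethylase gene KDM5D was at 3.12 to 6.93 CPM in overload and 5.20 to 10.1 CPM in control libraries, so it was detected in all 12. Its part in the values of LAS1L was not tested. Of the 40 genes, 7 overlap another protein-coding gene, among them MBTD1, SPSB3, CEP295, SETDB1 and SUGP2 over 113 to 704 bases each. These are overlaps of spans, not of exons. Read numbers that were not whole occurred in SPSB3, with minima of 258.34 in overload and 356.66 in control libraries, and in CEP295 and DISC1. Where these came from was not tested. Gene length was a property that the rule did not use. Its median was 35644.5 bases for 32 of the lower members and 35809.5 bases for 354 listed lower genes with a length.

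Other genes of the same classes were looked up in gene lists. The chromatin and ubiquitin lists leave out SETDB1, ASXL1, MBTD1, KDM5D and USP20, and also SMARCA5, which was higher. Their counts therefore do not cover the classes as a whole. Of 34 histone-modifying and chromatin genes, CREBBP and CHD9 were in the table, both lower in overload. Of 29 semaphorins, plexins and ephrins, EFNB1 and EFNB2 were higher and SEMA4B lower. Of 27 ubiquitin ligases and deubiquitinases, FBXO32 was in the table, lower. These directions are those of the authors' deposited table. Lists of cell type markers, 12 lists of 71 genes in all, had 2 genes in the table, and the other markers were not analysed here, so the labelled tissue could not be checked against cardiomyocyte markers. MYL4, 1 of 5 atrial markers, was at 4.76 to 16.97 CPM in overload and 12.9 to 40.02 CPM in controls. KDR, 1 of 7 endothelial markers, was at 112 to 191 CPM in overload and 62.1 to 147 CPM in controls. The part of either cell type in the values of the 40 genes was not tested.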

How the data were processed

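Polyadenylated RNA of pig heart was sequenced from directional libraries, per the labels' protocols. Per the submitters' processing notes, reads were processed with tools that include SAMtools 1.5, STAR 2.7.2b, Trim Galore 0.4.5 and featureCounts (Subread 1.5.3), with the build Sscrofa11.1. No source used here gives the annotation or the strand setting. The authors' table holds CPM per library and as group means, per the file headers. It also holds the authors' log2 fold change and mean log2 CPM, a likelihood-ratio score and p-values before and after adjustment, per the file headers. All 516 listed genes have an unadjusted p of at most 0.04997 in the authors' deposited table, so the list was chosen on the outcome; the adjusted p-values imply 15235 genes tested.

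Groups follow the group label of each sample. Library sizes were searched between 18 and 36 M reads; among read numbers of at most 5000, 95.8% came out whole (tolerance 0.02 reads) and 99.6% did so after multiplying by 3. Because not all were whole, count models were not used. In simulated libraries the search returned 12 of 12 sizes. Log2 differences and their SE come from limma 3.58.1 (R 4.3.3) (trend on mean expression) fitted to log2(CPM + 1) of 512 genes that had 1 CPM or more in 6 or more libraries; all 40 members passed, SHCBP1L through its control libraries. The limma script was tested on simulated data. Its SE draw on the spread of all 512 genes, which were listed for a small p, so they may be too low. Python 3.11.15 was used otherwise. Values in all libraries are given for the 8 members per direction with the widest gap (ratio of facing values, CPM + 1) and the 6 with the largest log2 difference, and each other member is named with its group values. Members, roles and lists were chosen with earlier results of these data known. Alternatives were other scalings, pseudocounts, filters, margins and libraries left out. RefSeq gave positions by symbol; sequences were not used here. The result of 1 gene list is not reported here.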

Additional observations from a re-analysis of the deposited data

Results flagged for a closer look

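For each of the 40 genes, the highest and the lowest library of each group were compared with the nearest of the other 5 by Dixon's criterion. It marked a library as far from its group in 10 of the 80 groups checked. The criterion marks about 1 in 20 independent groups by chance, but these groups share 12 libraries and their genes were chosen on the same values, so no chance count applies. Overload replicate 4 was the library in 4 of the 10 and control replicate 5 in another 4.

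In overload replicate 4, UVSSA was at 5.66 CPM, against 11.01 to 12.8 CPM in the other overload libraries, SPSB3 at 10.01 CPM, against 14.5 to 16.5 CPM, and SUGP2 at 34.05 CPM, against 42.7 to 47.5 CPM. SMARCA5 was the one gene high there, at 107 CPM, against 98.8 to 100.4 CPM in the other overload libraries. In overload replicate 5, MSI2 was at 39.5 CPM, against 34.5 to 36.3 CPM in the others.

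In control replicate 5, USP20 was at 50.99 CPM, against 28.5 to 32.7 CPM in the other control libraries, GAS8 at 22.6 CPM, against 16.1 to 17.9 CPM, TRIP13 at 24.3 CPM, against 17.003 to 18.8 CPM, and CEP295 at 46.9 CPM, against 39.2 to 41.5 CPM. In control replicate 4, MBTD1 was at 30.8 CPM, against 25.6 to 27.4 CPM in the others. In MSI2 the marked library was the one nearest to the other group, and in the other 9 genes it lay on the far side. What sets these libraries apart was not tested.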

How the results depend on the processing

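The median log2 difference was -0.14 (lower members) and 0.60 (higher members) after median-of-ratios rescaling, and -0.25 and 0.50 after upper-quartile rescaling. Of the 40 members, 11 and 9 then had no overlap, and among all listed genes 53 (6 lower, 47 higher) and 32 (9 lower, 23 higher) had none, against 50 as deposited (39 lower, 11 higher). TBL3 (0.0195), CEP295 (0.00606), MSI2 (0.0300), RETREG3 (0.0689) and SUGP2 (0.0802) turned positive after median-of-ratios rescaling, which adds an upward shift by construction. In libraries S01 to S06 the median was -0.32 for the lower members and 153 genes had no overlap, while S10 to S15 gave -0.61, 0.41 for the higher members, and 376 genes, with 3 libraries a group instead of 6. Leaving out 1 library at a time gave 57 to 162 genes without overlap, with 162 without overload replicate 3, 86 without control replicate 2 and 78 without control replicate 3. Medians then ran from -0.50 to -0.39 (lower members) and from 0.25 to 0.31 (higher), and limma called 0 genes each time. No member's log2 difference moved by more than 1.5 times without any 1 library. Requiring a gap of at least 10% left 9 genes, 6 of them members. With a pseudocount of 0.1, SHCBP1L was at -1.82, SLFNL1 at -1.22, DNAH10 at -1.05 and CEP126 at -1.01. Adjusting limma over the table alone gave 419 calls, but every gene there was listed for its p.

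Leaving out overload replicate 4 and control replicate 5 together, chosen after seeing the data, gave 75 genes without overlap. Of 800 single-gene values under all these settings, 717 moved by less than the spread between libraries, 78 by more, and 5 turned. The pooled 717 is no measure of stability. The filter on low CPM cannot change a gene's value, and many settings left out only a library at a time, which keeps most of the data. Under median-of-ratios rescaling, most members moved by more than that spread or turned, and all 5 that turned did so there. No paired analysis was possible because the labels give no replicate numbers that tie an overload library to a control library. With few reads, SHCBP1L, SLFNL1 and DNAH10 are limited most by depth.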

Other observations

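In other gene lists, 37 genes of endoplasmic reticulum secretion and the unfolded protein response had 4 in the table (SERP1, XBP1, ARCN1 and COPB2), all higher in overload in the authors' deposited table. Of 29 glycosylation enzymes, 4 were in the table, 2 lower and 2 higher. Of 24 genes listed as potassium and calcium channels of myocytes, only the TRP cation channel genes TRPM7 and TRPC1 were in the table, both lower. Of 9 Y-linked genes 1 was in the table, KDM5D, and of 10 X-linked genes that often escape inactivation 0 were. None of these genes is among the 40, and the table holds only genes with an unadjusted p under 0.05, so these counts do not describe the lists as a whole.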
